A study of Mus musculus with 6 samples.

Results

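A panel of 10 genes that are used to tell brown, beige and white fat apart were followed in subcutaneous white adipose tissue (scWAT) of mice with and without an adipocyte deletion of *Yap* and *Taz*. The genes were chosen by name, as published markers of fat depots and fat cell types, with earlier results of these data known. The brown depot markers were *Zic1*, *Lhx8* and *Fbxo31*, and the beige markers were *Tbx1*, *Tmem26* and *Epsti1*. The others were the depot transcription factor *Tbx15* and the fat cell surface markers *P2rx5*, *Slc36a2* and *Slc7a10*. The panel makes up 10 of the 55401 genes counted, and 9 of the 10 passed the filter on low counts, all but *Zic1*. The RNA came from scWAT of 8-week-old male mice kept at room temperature, with 3 mice in each group and 1 RNA-seq library a mouse. Mice of both groups carried floxed *Yap1* and *Taz* alleles, both from a C57BL/6–129 background, and the Cre line was C57BL/6. The control mice (YT-FF) carried no Cre recombinase, and the sample labels call them WT. The YT-AKO mice had an *Adipoq*-driven Cre in addition, a driver of mature adipocytes, so that the other cells of the tissue kept both genes.

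Brown adipocytes of the interscapular depot arise from precursors that share an origin with skeletal muscle, and *Zic1* and *Lhx8* are used as markers of that depot. Beige adipocytes are thermogenic cells that appear within white depots, burn fuel through the uncoupling protein Ucp1 as brown adipocytes do, and come from other precursors. Marker panels for the precursors and mature cells were therefore drawn up to ask which kind of fat cell a depot holds, apart from the question of how thermogenic it is.

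The promoter windows of the 3 brown depot markers are shown because these genes behaved differently from one another in the same tissue, with one at 0 counts, one at a low level and one abundant. Each window runs from 250 bases before to 50 bases after the start of the gene, is written 5′ to 3′ on the strand of the gene, and comes from RefSeq on GRCm38.p6. Capitals mark CpG dinucleotides. The windows are chr9:91365719-91366018 for *Zic1*, chr3:154330511-154330810 for *Lhx8* and chr8:121578757-121579056 for *Fbxo31*, all on the minus strand.
Zic1: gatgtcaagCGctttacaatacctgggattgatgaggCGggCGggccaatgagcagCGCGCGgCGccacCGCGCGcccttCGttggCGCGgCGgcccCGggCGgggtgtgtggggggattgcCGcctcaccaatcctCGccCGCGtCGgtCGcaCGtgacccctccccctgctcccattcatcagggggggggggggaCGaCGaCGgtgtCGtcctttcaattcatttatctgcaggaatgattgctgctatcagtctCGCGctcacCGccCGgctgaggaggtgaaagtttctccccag
Lhx8: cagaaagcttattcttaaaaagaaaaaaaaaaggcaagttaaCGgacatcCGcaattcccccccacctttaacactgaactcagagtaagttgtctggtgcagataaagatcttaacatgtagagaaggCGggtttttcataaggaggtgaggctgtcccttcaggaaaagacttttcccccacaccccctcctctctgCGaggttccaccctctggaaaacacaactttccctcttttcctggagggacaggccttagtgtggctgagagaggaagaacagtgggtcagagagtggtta
Fbxo31: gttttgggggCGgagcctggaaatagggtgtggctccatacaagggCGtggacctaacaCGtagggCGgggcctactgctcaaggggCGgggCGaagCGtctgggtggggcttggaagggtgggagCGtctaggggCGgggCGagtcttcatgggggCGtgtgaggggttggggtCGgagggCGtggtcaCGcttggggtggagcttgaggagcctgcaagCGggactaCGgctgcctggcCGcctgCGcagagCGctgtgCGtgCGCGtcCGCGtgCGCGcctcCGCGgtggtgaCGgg
The *Zic1* window held 31 CpG dinucleotides and the *Fbxo31* window held 29, whereas the *Lhx8* window held 4 and the median over 32841 mouse promoter windows was 7. The G and C content was 65.3%, 69.7% and 47% in *Zic1*, *Fbxo31* and *Lhx8*, beside a median of 52.67% over all windows. Of these 3 windows, the most CpG-rich belonged to the gene with no counts, and a relation of CpG content to level was not tested. No window was available for *Tbx15*, *P2rx5* and *Slc36a2*, so that *P2rx5* and *Slc36a2*, which are called higher below, were not searched. Windows were found for 7 of the 10 genes, and *Tbx1* had 2 of them, which made 8. They were searched on both strands for GGAATG, the core motif of the TEAD factors through which YAP and TAZ bind DNA. This motif occurred once in the window of *Zic1* and once in that of *Tmem26*, and in 14.7% of all windows. AGGTCA, a half-site for PPAR and related receptors, occurred once in the window of *Epsti1* and in 16.3% of all windows. None of the 8 windows held TTGCNNAA, a C/EBP motif that 10.8% of all windows held. A match describes the letters of the window and not binding.

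The libraries held 17740987 to 21838493 counted fragments. The targeted genes were examined first as a check of the labels. *Yap1* had 1622, 1300 and 1295 counts in the YT-FF libraries and 649, 492 and 529 in those labelled YT-AKO, a log2 fold change of -0.98 (edgeR, adjusted p = 0.0179). The counts of *Wwtr1*, the gene for TAZ, were 1818, 1729 and 1918 in YT-FF, below the 3015, 2253 and 2716 of the libraries labelled YT-AKO, a log2 fold change of 0.89 (edgeR, adjusted p = 0.0220), so that its level ran against the label. A count over all exons does not show whether the deleted exons are present, and every direction below rests on the labels. At the protein level, the paper reported less YAP and TAZ in scWAT of YT-AKO mice by immunoblot. One library stood apart. YT-AKO 2 had a TMM factor of 0.777 against 0.954 to 1.16 in the others, and its counts differed from those of YT-AKO 1 and YT-AKO 3 with a chi-square per degree of freedom of 177 and 161, against 13.0 to 36.0 for the other pairs within a group. Values below are CPM, counts scaled to a common library total with TMM factors, unless given as TPM, which also divides by gene length and is the scale on which the levels of different genes can be compared. In bulk tissue, fewer cells of a type and less RNA per cell cannot be told apart.

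Of the 9 genes tested, *Fbxo31*, *P2rx5* and *Slc36a2* rose in the libraries labelled YT-AKO, 6 did not pass the test, and none fell (edgeR quasi-likelihood test, Benjamini-Hochberg adjusted p under 0.05 over 16807 genes). By the same rule 12.6% of all tested genes were higher and 9.01% were lower, 21.6% in all. The median log2 fold change of the 9 genes was 0.45, beside -0.02 over all tested genes. An unadjusted p under 0.05 was reached by 5 of the 9, the other two being *Tbx1* and *Tbx15*, beside 40.8% of all tested genes. Leaving out YT-FF 1 or YT-FF 2 left no gene of the panel called, and no gene higher among all those tested (edgeR), and 5 and 3 of the panel had an unadjusted p under 0.05, beside 27.1% and 26.3% of all tested genes. Over all tested genes the log2 fold change went down with gene length (Spearman's rho of -0.376 across genes, which are not independent replicates), and a correction for length called the same 3 genes of the panel. DESeq2 found none lower and 4 higher, beside 18.1% of all genes higher by that tool, and limma-voom found none lower and 3 higher, beside 11.8%. A stricter rule, which asked for a log2 fold change beyond 1 together with an adjusted p under 0.01, was met by *P2rx5* and by no other gene of the panel (edgeR). That rule was met upwards by 0.0892% and downwards by 0.0357% of all tested genes. In 5 genes all 3 libraries labelled YT-AKO exceeded all 3 YT-FF libraries in CPM, as they did for 25.7% of all tested genes, and no gene of the panel showed the opposite order, which 25.8% of all tested genes showed. The 3 rises were 1 of the 3 brown depot markers, of which 2 were tested, and 2 of the 3 surface markers. None of the 3 beige markers was called by edgeR, while DESeq2 also called the beige marker *Tbx1*. With so few genes of each kind, these counts do not set the kinds apart from the 12.6% of all tested genes.

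**Figure D1:**
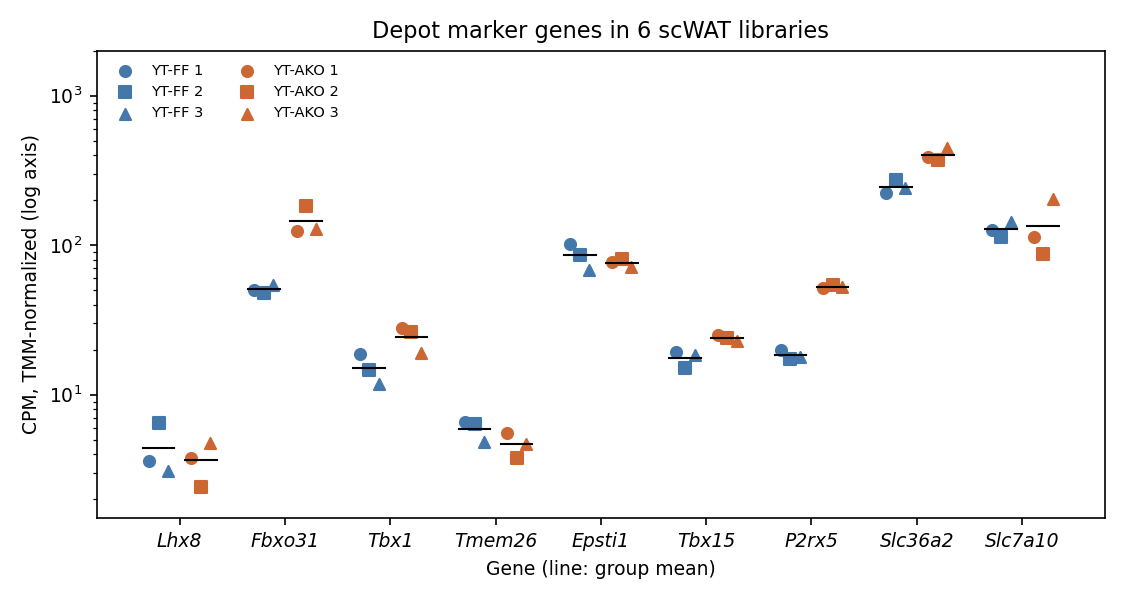
Level of each gene of the panel in every library, in TMM-normalised CPM on a log axis, with 1 point a library and a bar at the group mean of 3 libraries. *P2rx5* and *Fbxo31* are separated clearly, *Slc7a10* overlaps with a wide spread in the libraries labelled YT-AKO. *Zic1*, at 0 in every library, cannot be drawn on this axis.

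**Figure D2:**
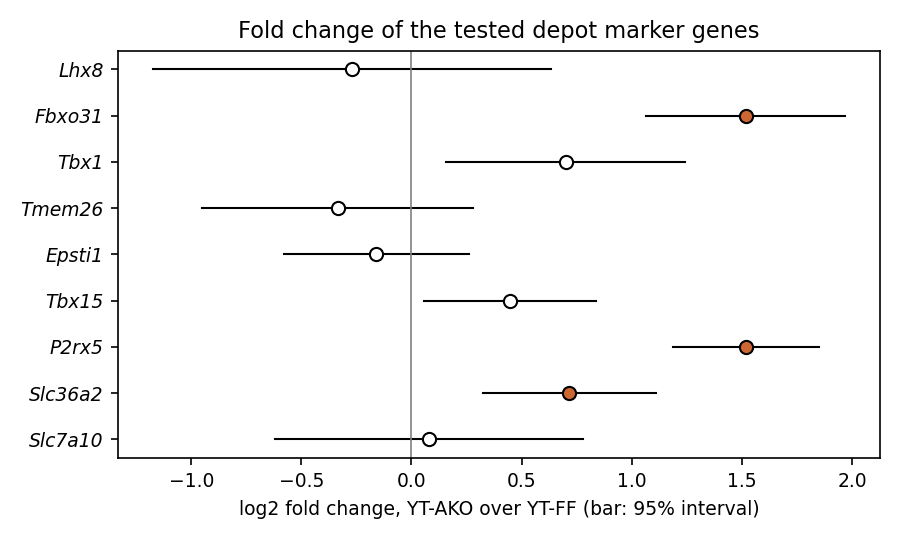
Log2 fold change (YT-AKO minus YT-FF) of the 9 tested genes from edgeR, with bars for the 95% interval. The intervals of *P2rx5*, *Fbxo31*, *Slc36a2*, *Tbx1* and *Tbx15* lie above 0, and the first 3 of these, drawn filled, pass after adjustment over all genes.

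Levels spanned a wide range within the panel. In mean TPM over the 6 libraries, *Slc36a2* ranked 471 among the 16807 tested genes, *Slc7a10* 762 and *Epsti1* 1398. *Fbxo31* ranked 3306 and *P2rx5* 3875, *Tbx15* 7712 and *Tbx1* 7766, and *Lhx8* 11973 and *Tmem26* 13204. Amino acid transporters of the fat cell surface were thus the most abundant of the panel, and *Lhx8* and *Tmem26* were the lowest of those tested. In the YT-FF libraries the TPM ranges of neighbours in this order did not overlap, except between *Tbx15* and *Tbx1* and between *Lhx8* and *Tmem26*, which did not differ beyond their spread.

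*Zic1*, the zinc finger transcription factor most often used to mark the classical brown depot (ENSMUSG00000032368.14, chr9:91358058-91365810, mm10), had 0 counts in all 6 libraries. A count of 0 allows up to 3 counts, which was 0.128 to 0.177 CPM or 0.0545 to 0.0979 TPM depending on the library, for counting error only. The result was the same in the libraries labelled YT-AKO, where *Ucp1* was high. *Zic1* shares 1.05% of its exon bases with *Zic4* on the opposite strand, and fragments there were not counted. *Zic2* was also at 0 in every library, and *Zic4* had 0 or 1 count.

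*Lhx8*, a LIM-homeobox transcription factor used as another brown depot marker (ENSMUSG00000096225.7, chr3:154306294-154330659), was present at a low level and did not pass the test. Its counts were 85, 147 and 60 in YT-FF and 65, 41 and 80 in the libraries labelled YT-AKO. In CPM these were 3.62, 6.46 and 3.09 against 3.78, 2.42 and 4.73. The groups overlapped, with the highest value in YT-FF 2 and the lowest in YT-AKO 2. The means were 4.39 ± 1.81 and 3.64 ± 1.16 CPM (SD, n = 3 mice each), and the log2 fold change was -0.27 ± 0.39 (SE), with a 95% interval from -1.17 to 0.63 (edgeR, adjusted p = 0.625). A difference inside that interval could not be told from the spread between mice.

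*Fbxo31*, an F-box protein that recruits substrates to a ubiquitin ligase and a gene listed as enriched in brown adipocytes (ENSMUSG00000052934.14, chr8:121549440-121578806), rose 2.86-fold. Its counts were 1178, 1096 and 1048 in YT-FF and 2139, 3121 and 2158 in the libraries labelled YT-AKO, or 50.2, 48.2 and 54.0 CPM against 124, 184 and 128 CPM. The groups lay far apart, and YT-AKO 2 was the highest library. The mean went from 50.8 ± 2.94 to 145 ± 33.6 CPM (SD, n = 3 mice each), a log2 fold change of 1.52 ± 0.20 (SE; 95% interval 1.06 to 1.97; edgeR, adjusted p = 0.0166). In TPM the 3 libraries labelled YT-AKO were closer, at 63.2, 58.8 and 63.3 against 35.2, 34.7 and 35.5, and the groups remained apart. Of the 2 brown depot markers that are transcription factors, *Zic1* was not tested and the interval of *Lhx8* ran from -1.17 to 0.63. A contrast between transcription factors and other brown depot markers could therefore not be drawn.

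*Tbx1*, a T-box transcription factor enriched in beige precursors (ENSMUSG00000009097.10, chr16:18580979-18590671), had 18.6, 14.6 and 11.8 CPM in YT-FF and 27.96, 26.2 and 19.1 CPM in the libraries labelled YT-AKO. The groups did not overlap, though YT-AKO 3 came close to YT-FF 1. The means were 15.02 ± 3.41 and 24.4 ± 4.66 CPM (SD, n = 3 mice each), with a log2 fold change of 0.70 ± 0.23 (SE; 95% interval 0.16 to 1.24), and the adjusted p of 0.0651 (edgeR) missed the threshold. In TPM, 20.4, 16.4 and 12.1 stood against 22.2, 13.0 and 14.8, and the groups overlapped. DESeq2 called *Tbx1* higher, with an adjusted p of 0.0356.

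*Tmem26*, a transmembrane protein that marks beige cells (ENSMUSG00000060044.8, chr10:68723646-68782650), was present at a low level and did not pass the test. Its counts were 154, 144 and 93 in YT-FF and 96, 64 and 79 in the libraries labelled YT-AKO, or 6.56, 6.33 and 4.79 CPM against 5.58, 3.77 and 4.67 CPM. The groups overlapped in CPM, at 5.89 ± 0.964 and 4.67 ± 0.903 (SD, n = 3 mice each), with a log2 fold change of -0.33 (SE 0.27; 95% interval -0.95 to 0.28; edgeR, adjusted p = 0.368). In TPM its 3 values in the libraries labelled YT-AKO, 2.95, 1.25 and 2.40, all lay below those of YT-FF, 4.78, 4.73 and 3.27.

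*Epsti1*, an epithelial and stromal interaction gene listed among beige markers and also induced by interferon (ENSMUSG00000022014.15, chr14:77904239-78002657), did not pass the test. It had 102, 86.3 and 68.2 CPM in YT-FF and 77.1, 81.0 and 71.2 CPM in the libraries labelled YT-AKO. The libraries labelled YT-AKO all fell inside the YT-FF range, and the mean was 85.4 ± 16.8 against 76.4 ± 4.97 CPM (SD, n = 3 mice each). The log2 fold change was -0.16 (SE 0.18; 95% interval -0.58 to 0.26; edgeR, adjusted p = 0.531). Of 13 interferon-stimulated genes, all tested, none rose and 1 fell, *Ifit2*, by 0.76 on the log2 scale (edgeR, adjusted p = 0.0398), with a list median of 0.08. Markers of B and T cells, summed over 8 genes, were at 923 to 1114 CPM in YT-FF and at 682, 1087 and 630 CPM in YT-AKO 1, 2 and 3, and 3 of the 8 fell, *Ms4a1* and *Cd4* among them. Their part in the result was not tested. In TPM, *Epsti1* was at 168, 147 and 106 in YT-FF and at 92.6, 61.2 and 83.3 in the libraries labelled YT-AKO. In TPM the libraries labelled YT-AKO thus put 2 beige markers under the YT-FF range and put 2 other genes, *Fbxo31* and *P2rx5*, over it. Over all tested genes this order was below in 54.5% and above in 7.52%, so that a gene below in TPM was in the majority.

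*Tbx15*, a T-box factor of subcutaneous and brown fat and of muscle (ENSMUSG00000027868.11, chr3:99240381-99354259), had 19.4, 15.2 and 18.3 CPM in YT-FF and 25.2, 24.1 and 22.7 CPM in the libraries labelled YT-AKO. The groups did not overlap, and the means were 17.6 ± 2.20 and 24.0 ± 1.27 CPM (SD, n = 3 mice each). The log2 fold change was 0.45 (SE 0.17; 95% interval 0.05 to 0.84), and the adjusted p of 0.0890 (edgeR) missed the threshold. In TPM the means were 17.8 ± 1.97 and 15.5 ± 3.84 and the groups overlapped. Muscle transcripts differed widely between libraries. Summed over a list of 8 skeletal muscle genes, the libraries held 112 to 407 CPM in YT-FF and 2946, 438 and 208 CPM in YT-AKO 1, 2 and 3, and 1 of the 6 muscle genes tested, *Acta1*, rose. YT-AKO 1 was the highest library for *Tbx1*, for *Tbx15* and for the sum of muscle genes, whereas the sum in YT-AKO 3 lay inside the YT-FF range. Without YT-AKO 1 the log2 fold changes of *Tbx1* and *Tbx15* were 0.60 and 0.42. Beyond those values the part of muscle RNA in the result was not tested.

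*P2rx5*, an ATP-gated ion channel of the P2X family that marks brown and beige fat cells (ENSMUSG00000005950.14, chr11:73160421-73172685), had the clearest rise of the panel. Its counts were 469, 396 and 348 in YT-FF and 890, 920 and 893 in the libraries labelled YT-AKO. In CPM these were 19.99, 17.4 and 17.9 against 51.7, 54.3 and 52.8, so that the groups were far apart and the libraries within each were close. The mean went from 18.4 ± 1.37 to 52.9 ± 1.26 CPM (SD, n = 3 mice each), with coefficients of variation of 7.43% and 2.39%. The fold change was 2.87, or 1.52 on the log2 scale (SE 0.14; 95% interval 1.19 to 1.85; edgeR, adjusted p = 0.00782). In TPM the levels were 32.1, 28.7 and 27.0 against 60.2, 39.7 and 59.9, still without overlap, with YT-AKO 2 the lowest of its group. *Fbxo31* and *P2rx5* had nearly the same fold change but differed in spread.

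*Slc36a2*, a proton-coupled transporter of small amino acids at the surface of brown and beige fat cells (ENSMUSG00000020264.5, chr11:55158470-55185077), rose less, by 1.64-fold. It had 223, 271 and 241 CPM in YT-FF and 391, 372 and 446 CPM in the libraries labelled YT-AKO. The groups did not overlap, and the means were 245 ± 24.4 and 403 ± 38.2 CPM (SD, n = 3 mice each). The log2 fold change was 0.72 (SE 0.17; 95% interval 0.32 to 1.11; edgeR, adjusted p = 0.0287). In TPM the levels were 263, 329 and 268 against 335, 200 and 372. Those ranges overlapped because YT-AKO 2 was the lowest of all 6. Scaled by library totals alone, the log2 fold change of *Slc36a2* was 0.40 and was no longer called (edgeR, adjusted p = 0.169), while the median over all tested genes was -0.34. It also missed the threshold without YT-FF 3 and without YT-AKO 3. Summed over 7 genes of adipocyte identity, the libraries held 14947 to 21775 CPM in YT-FF and 22691, 36658 and 25597 CPM in YT-AKO 1, 2 and 3. Of these 7 genes, 2 rose, *Fabp4* and *Lipe*, and the list median was 0.43. *Fabp4* alone held 4344, 4072 and 7199 CPM of the sum in YT-FF and 9159, 20229 and 10204 CPM in the libraries labelled YT-AKO. Their part in the result was not tested.

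*Slc7a10*, a sodium-independent transporter of small neutral amino acids that marks white adipocytes (ENSMUSG00000030495.12, chr7:35186385-35201114), did not pass the test. It had 127, 114 and 143 CPM in YT-FF and 113, 87.5 and 204 CPM in the libraries labelled YT-AKO. YT-AKO 2 was the lowest and YT-AKO 3 the highest of all 6 libraries, so that the groups overlapped widely. The means were 128 ± 14.3 and 135 ± 61.0 CPM (SD, n = 3 mice each), with coefficients of variation of 11.2% and 45.2%. The log2 fold change was 0.08 (SE 0.30; 95% interval -0.62 to 0.78; edgeR, adjusted p = 0.861) and its sign turned under several other settings. *Slc7a10* shares 17.9% of its exon bases with *Lrp3* on the opposite strand, and fragments in that stretch were counted for neither gene.

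**Figure D3:**
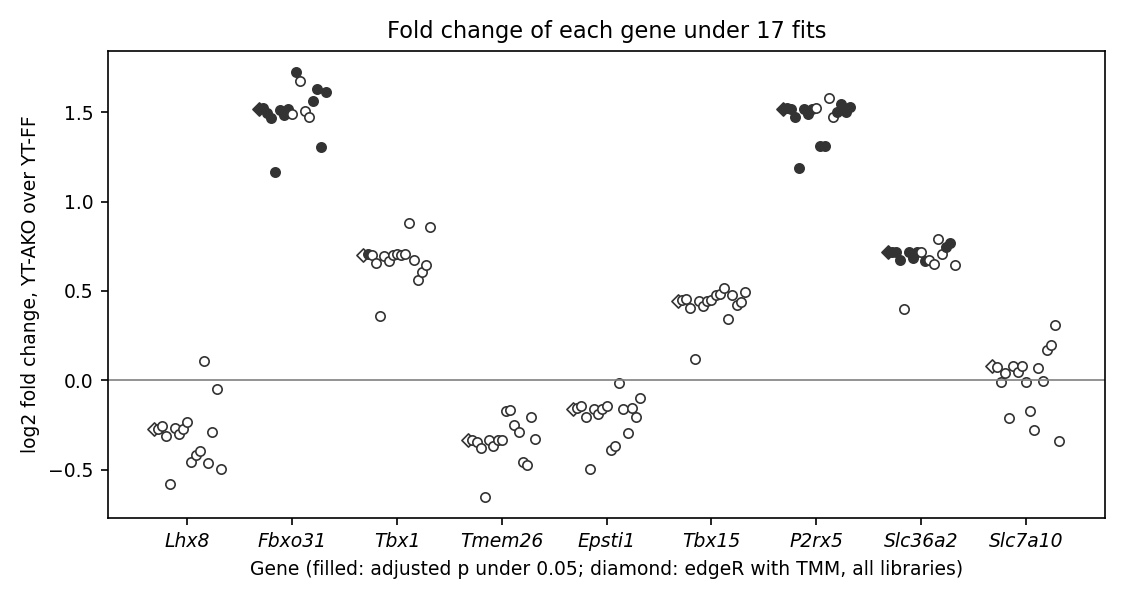
Log2 fold change (YT-AKO minus YT-FF) of each tested gene in all 17 fits across genes, with a diamond for edgeR with TMM and all libraries and filled symbols for an adjusted p under 0.05. *Fbxo31*, *P2rx5*, *Slc36a2*, *Tbx1* and *Tbx15* stay above 0 in every fit, *Tmem26* and *Epsti1* stay below 0, and *Slc7a10* and *Lhx8* fall on both sides.

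A ratio of 2 genes within a library cancels its scaling, apart from the 0.5 CPM added to each, and was used to set brown and beige against white surface markers. The ratio of *P2rx5* to *Slc7a10* was 0.161, 0.156 and 0.129 in YT-FF and 0.458, 0.622 and 0.261 in the libraries labelled YT-AKO. The groups did not overlap, and the mean log2 ratio differed by 1.51 (exact permutation test, two-sided p = 0.1, the smallest p that 3 against 3 allows; adjusted over the 4 ratios, 0.133). The ratio of *Slc36a2* to *Slc7a10* was 1.76, 2.37 and 1.69 against 3.44, 4.23 and 2.18. It overlapped between the groups, with a difference in mean log2 ratio of 0.72 (exact permutation test, two-sided p = 0.2; adjusted, 0.2). With this number of mice no such test can go below 0.1.

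The fold changes of the surface markers were smaller than that of *Ucp1*, the uncoupling protein itself. The counts of *Ucp1* were 159, 84 and 191 in YT-FF and 2472, 6694 and 4107 in the libraries labelled YT-AKO, or 6.77 ± 3.07 and 260 ± 126 CPM (SD, n = 3 mice each), a log2 fold change of 5.27 (edgeR, adjusted p = 0.00782). The ratio of *Slc36a2* to *Ucp1* was 30.7, 64.8 and 23.4 in YT-FF and 2.72, 0.943 and 1.83 in the libraries labelled YT-AKO. The difference in mean log2 ratio was -4.43, with no overlap (exact permutation test, two-sided p = 0.1, the smallest possible; adjusted, 0.133). For *P2rx5* to *Ucp1* the ratio was 2.82, 4.27 and 1.78 against 0.362, 0.139 and 0.219, a difference of -3.64 with no overlap (exact permutation test, two-sided p = 0.1, the smallest possible; adjusted, 0.133).

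**Figure D4:**
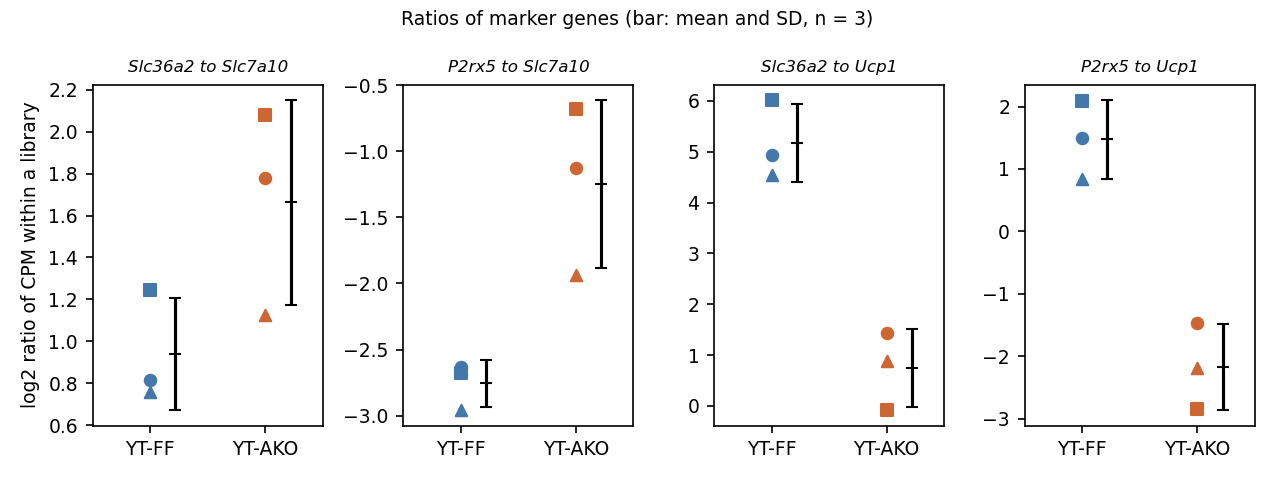
Log2 ratio of pairs of genes in each library (0.5 CPM added to both), with 1 point a library and a bar for the mean and SD of 3 libraries. *P2rx5* to *Slc7a10* is higher in the libraries labelled YT-AKO, both ratios to *Ucp1* are lower, and *Slc36a2* to *Slc7a10* overlaps.

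Genes of the same marker classes outside the panel were counted next. Of 11 further brown depot genes, 8 were tested, 1 rose and none fell, with a median log2 fold change of 0.08. The gene that rose was *Oplah*, which encodes 5-oxoprolinase of the glutathione cycle, at 126 ± 7.26 and 189 ± 32.4 CPM (SD, n = 3 mice each; log2 fold change 0.59; edgeR, adjusted p = 0.0499). That count stayed at 1 in only 3 of the 16 alternative fits. Among the others it was 0 with upper-quartile factors, library totals, no filter or the replicate block. It was 2 with DESeq2 and with at least 10 counts in every library, and some fits with a library left out also moved it. Of 8 further beige genes, all tested, 1 rose and 1 fell, with a median of 0.27. *Cited1*, a transcriptional coactivator used as a beige marker, was at 0, 3 and 3 counts in YT-FF and at 30, 47 and 26 in the libraries labelled YT-AKO (edgeR, adjusted p = 0.0185). *Sp100*, a nuclear body protein, fell by 0.72 on the log2 scale (edgeR, adjusted p = 0.0321). Of 8 white and subcutaneous depot genes, 7 were tested and 2 rose, the homeobox genes *Hoxc9* (14.9 against 41.9 CPM, a log2 fold change of 1.49) and *Hoxc10* (18.2 against 37.1 CPM, a log2 fold change of 1.03), with adjusted p of 0.0204 and 0.0177 (edgeR). Their list had a median of 0.66. A rise was therefore counted in 2 of 7 white and subcutaneous depot genes, 1 of 8 further brown depot genes and 1 of 8 further beige genes, beside the 12.6% of all tested genes.

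Thermogenic genes that brown and beige fat share rose in 10 of 16 cases with none lower, at a median log2 fold change of 1.48. This list was chosen with earlier results of these data known, and it holds *Ucp1* and *Elovl3*, which the paper reported as induced. Over the alternative fits the number called higher ran from 0 to 10. *Elovl3*, a fatty acid elongase, was at 2, 8 and 6 counts in YT-FF and at 493, 176 and 104 in the libraries labelled YT-AKO (edgeR, adjusted p = 0.0166). *Cox8b*, a subunit of cytochrome c oxidase, had 33.4 ± 7.52 and 786 ± 644 CPM (SD, n = 3 mice each; log2 fold change 4.56; edgeR, adjusted p = 0.0166), and *Fabp3*, a fatty acid binding protein, rose by 4.195 on the log2 scale (edgeR, adjusted p = 0.0315). *Prdm16* and *Ppargc1a*, which encode regulators of the thermogenic program, had log2 fold changes of -0.28 and 0.02 and did not pass the test (edgeR, adjusted p = 0.413 and 0.965).

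**Figure D5:**
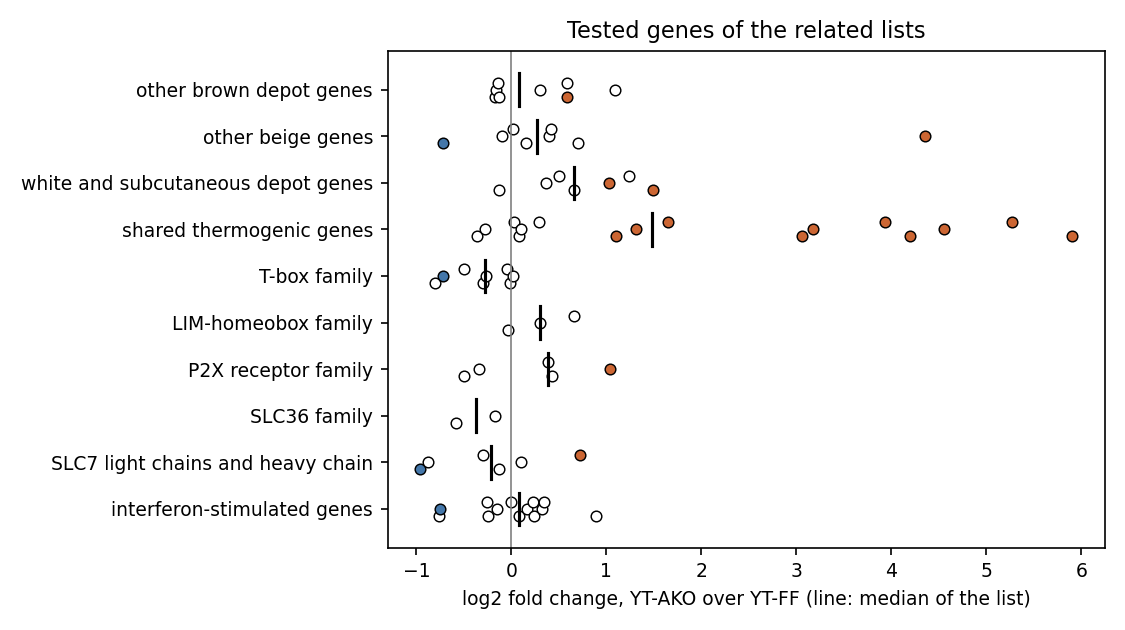
Log2 fold change (YT-AKO minus YT-FF) of the tested genes in each list of related genes, with 1 point a gene, filled where it was called, and a bar at the list median. The medians are 1.48 for shared thermogenic genes, 0.08 for further brown depot genes and 0.27 for further beige genes. The lists were chosen with earlier results of these data known.

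Close relatives of the genes of the panel were counted in the same way, beside the 12.6% higher and 9.01% lower of all tested genes. With so few genes a family, these counts do not set the families apart from those shares. Over the 16 alternative fits, the number of P2X relatives called higher stayed at 1 in 7 fits and ran from 0 to 2. The number called lower stayed at 1 in 5 fits for the SLC7 list (0 to 2) and in 9 for the T-box list (0 to 1). Among 5 tested P2X receptors other than *P2rx5*, *P2rx6* rose from 6.30 ± 0.877 to 13.0 ± 4.41 CPM (SD, n = 3 mice each; log2 fold change 1.04; edgeR, adjusted p = 0.0405). *P2rx4*, the most abundant of them in TPM, was at 55.2 ± 1.74 and 74.0 ± 6.03 CPM and missed the threshold (log2 fold change 0.42; edgeR, adjusted p = 0.0639). Neither of the 2 tested SLC36 relatives was called, and *Slc36a1*, the lysosomal member, had a log2 fold change of -0.17 (edgeR, adjusted p = 0.438). Among 6 tested SLC7 light chains and their heavy chains, *Slc3a2*, the heavy chain that brings light chains, *Slc7a10* included, to the membrane, rose from 93.1 ± 13.3 to 153 ± 5.46 CPM (SD, n = 3 mice each; log2 fold change 0.72; edgeR, adjusted p = 0.0258). *Slc7a5*, a light chain that carries large neutral amino acids, fell by 0.96 on the log2 scale (edgeR, adjusted p = 0.0400). Of 8 tested T-box relatives, 1 fell, *Mga*, which encodes a MAX dimerisation protein, by 0.72 on the log2 scale (edgeR, adjusted p = 0.0314). None of the 3 tested LIM-homeobox relatives of *Lhx8* was called, and *Lhx6* had a log2 fold change of 0.30 (edgeR, adjusted p = 0.333).

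Of 119 related genes, the one with the most alike pattern over the 6 libraries (Pearson's r of log2 CPM) was *Cidea* for *P2rx5* (r = 0.983), *Cox8b* for *Fbxo31* (r = 0.998) and *Hoxc10* for *Slc36a2* (r = 0.983). It was *Mx1* for *Tmem26* (r = 0.984), *Acta1* for *Tbx1* (r = 0.875) and for *Tbx15* (r = 0.932), *Cd40* for *Epsti1* (r = 0.894), *Tbx3* for *Slc7a10* (r = 0.885) and *Ppara* for *Lhx8* (r = 0.849). These coefficients describe 6 points that fall into 2 groups and share their scaling, and carry no test.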

How the data were processed

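The measurement was RNA-seq of scWAT in 3 mice a group. The authors aligned read pairs to mm10 using HISAT2 and assigned fragments to exons with featureCounts 2.0.1 on GENCODE vM 25. The deposited values are raw counts per gene, unstranded, without normalization, and without multi-mapping fragments or those shared by genes. Library totals were 17740987 to 21838493.

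In R 4.3.3, counts were fitted with edgeR 4.0.16 (TMM, filterByExpr with minimum count 10 and minimum total 15, quasi-likelihood test, Benjamini-Hochberg adjustment over 16807 genes), and the biological coefficient of variation was 0.288. Fold changes are YT-AKO over YT-FF. TPM used summed exon lengths. Of 55401 genes, 55141 matched the annotation used for symbols and coordinates. Intervals are 95%. P-values of the fits set the group difference against the spread between 3 mice a group, which the tools moderate across genes. Ratios added 0.5 CPM and were compared by exact permutation. Alternatives were DESeq2 1.42.0, limma-voom (limma 3.58.1), upper-quartile factors, library totals, no filter, at least 10 counts in every library, robust estimation, a replicate block, an offset for gene length (spline, 6 degrees of freedom), both together, and each library left out, and for ratios a pseudocount of 0.1 or 2 CPM and TPM.

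The panel and the lists (further brown depot, beige, white and subcutaneous depot, and thermogenic genes, gene families, interferon-stimulated genes, adipocyte identity, and markers of muscle, B and T cells, macrophages, fibroblasts, endothelium, epithelium, and sympathetic and Schwann cells) were chosen with earlier results of these data known. Named genes are the panel, *Yap1*, *Wwtr1*, *Ucp1*, up to 4 called genes a list with the largest absolute log2 fold change, the relative with the highest TPM in each family, and the gene most alike each panel member. *Prdm16*, *Ppargc1a*, *Adipoq*, *Lyz2*, *Th*, *Dbh* and the *Zic* relatives were added after their values were seen. A few genes under these rules are not reported here. Other experiments of the study were left out, apart from the few results of the paper named in the text.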

Additional observations from a re-analysis of the deposited data

How the results depend on the processing

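Over 16 alternative fits, *P2rx5* stayed called in 13 (log2 fold change 1.19 to 1.58), *Fbxo31* in 12 (1.17 to 1.73) and *Slc36a2* in 9 (0.40 to 0.79), all with the same direction. The panel had 3 genes called higher, 0 with the replicate block, 1 with the replicate block and length correction together (*P2rx5*, edgeR, adjusted p = 0.0489), and 0 to 3 with each library left out. Without YT-FF 1, edgeR called none of 17183 genes, though 4665 had an unadjusted p under 0.05, and 5 of the panel did; leaving out YT-FF 2 gave 0 higher and 2 lower calls, and 4507 and 3 had an unadjusted p under 0.05. The cause was not tested. Same-numbered libraries deviated with r = 0.139, -0.134 and -0.0911, so the numbers were not taken as pairs; the replicate block left 24 genes higher and 9 lower of all tested. The sign of *Slc7a10* turned with limma-voom (-0.00905), library totals (-0.21), the replicate block (-0.0086), the length correction (-0.17) and both together (-0.28), and its log2 fold change ran from -0.34 to 0.31 with each library left out. *Lhx8* ran from -0.50 to 0.11, the last without YT-FF 2. The 4 ratios kept their direction in every alternative. DESeq2 called 3031 genes higher and 2392 lower where edgeR called 2121 and 1515, library totals 1137 and 2828, and the length correction 1612 and 696. Shared thermogenic genes called higher ran from 0 to 10 of 16 over the fits. Under 100 counts a library, as in some libraries for *Lhx8* and *Tmem26*, counting error adds to the spread between mice.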

Other observations

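Markers of the other cells of the tissue are given as values. Of 6 macrophage genes, all tested, none was called, with log2 fold changes from -0.17 to 0.53 and a median of 0.28. Their summed level was 1048 to 1227 CPM in YT-FF and 1389 to 1693 CPM in the libraries labelled YT-AKO. *Lyz2* alone held 720, 821 and 701 CPM of that sum in YT-FF and 949, 1342 and 935 CPM in the libraries labelled YT-AKO. Of 6 genes of fibroblasts and progenitors, *Pi16*, a marker of fascial progenitors, rose from 198 ± 7.73 to 333 ± 51.4 CPM (SD, n = 3 mice each; log2 fold change 0.75; edgeR, adjusted p = 0.0275). *Dpp4*, a marker of the same progenitors, fell by 0.79 on the log2 scale (edgeR, adjusted p = 0.0334). Of 4 endothelial genes, *Kdr*, which encodes a receptor for vascular endothelial growth factor, fell by 0.78 (edgeR, adjusted p = 0.0358). Epithelial markers were near 0, with 1 of 5 tested and a summed level of 2.13 to 3.49 CPM over the 6 libraries. Of 5 sympathetic and Schwann cell genes, 3 were tested and none was called, and *Th* and *Dbh*, which encode enzymes of noradrenaline synthesis, had 0 counts in every library. RNA counts of the tissue do not measure protein in nerve fibres, so these values give no measure of innervation. The paper stained TH protein and reported denser sympathetic innervation in YT-AKO scWAT. *Adipoq*, which encodes adiponectin and whose promoter drives the Cre, had a log2 fold change of 0.43 and did not pass the test (edgeR, adjusted p = 0.176).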
